A study of Mus musculus with 16 samples.

Results

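The genes described here are 40 genes of the ATF4 stress response and the unfolded protein response (UPR), measured by RNA-seq in primary mammary tumors of mice. They are a list of names drawn up for these pathways with earlier results of these data known, and all 40 had a row among the 23609 genes of the deposited table. Of these, 22 belong to the amino acid response (8 regulators, 8 enzymes of amino acid and one-carbon synthesis, and 6 transporters), 4 are the UPR sensors with their transcription factor Xbp1, and 14 are chaperones and related proteins of the endoplasmic reticulum (ER). The 8 grouped as regulators include the enzyme gene Chac1 and the receptor gene Vldlr, which are not regulators themselves. All tumors arose in animals that carry MMTV-PyMT, a transgene in which the mouse mammary tumor virus promoter drives the polyoma middle T oncogene in mammary epithelium. The wildtype group carried no Resf1 mutation, and the gene trap group was Resf1 +/-, with a lentiviral trap in the first exon of 1 allele and the other allele intact. The trap line is on C57BL/6 and was crossed to FVB/MMTV-PyMT, the animals of both groups were littermates, no treatment was given, and ages are not given in the sources used here. The labels describe 8 tumors in each group, and 5 wildtype and 5 gene trap tumors were matched by name to a column and used.

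ATF4 is a transcription factor that is translated preferentially when the kinases PERK or GCN2 phosphorylate the initiation factor eIF2. It raises transcription of genes for amino acid uptake and synthesis, and, under lasting stress, of Ddit3 (CHOP) and Trib3. The UPR is the wider response to misfolded protein in the ER, with 3 sensors, PERK (Eif2ak3), IRE1 (Ern1) and ATF6, of which IRE1 splices Xbp1 mRNA and ATF6 is cut to release an activator of chaperone genes. Much of this regulation acts on translation, splicing or proteolysis, so mRNA totals show only one layer of it. Milk-producing mammary epithelium is a secretory tissue with a large ER, in which XBP1 and the ER chaperones are abundantly expressed.

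The 2 arms of the response are known to be read from different promoter elements, which are shown here as background. The arms compared below were set by the list of names and not by a match to these elements. The ER stress response element consists of CCAAT and CCACG held apart by 9 bases. RefSeq promoters (GRCm38.p6, 250 bases before to 50 after each start) were present for 35 of the 40 genes and were searched on both strands. The ER element was found in 7 of 12 ER chaperone genes (58.3%), in 0 of 20 amino acid response genes, in 0 of 3 sensor genes, and in 0.119% of all 32851 promoters. For both elements a listed gene was counted if any of its promoters had a match, and 4 of the 35 genes had 2 promoters. The share over all is per promoter, so these measures are not quite alike. In the following windows the 2 conserved boxes are in capitals, and 5 bases are shown on either side.
Hspa5: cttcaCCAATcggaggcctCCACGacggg
Calr: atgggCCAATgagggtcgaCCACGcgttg
Hsp90b1, distal: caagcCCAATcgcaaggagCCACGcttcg
Hsp90b1, proximal: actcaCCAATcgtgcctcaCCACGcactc
Canx: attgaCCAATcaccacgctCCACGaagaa
Pdia6: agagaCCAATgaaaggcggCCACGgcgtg
Dnajc3: cacaaCCAATcagcgccaaCCACGacccg
Creld2: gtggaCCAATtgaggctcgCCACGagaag

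The amino acid response element, to which ATF4 binds with a C/EBP partner, was searched as TGATGNAA. It was found in 6 of 20 amino acid response genes (30%), in 1 of 12 ER chaperone genes (8.33%), in 0 of 3 sensor genes and in 3.97% of all promoters. The element is in capitals, and the windows read in its own direction.
Chac1: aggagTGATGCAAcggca
Trib3: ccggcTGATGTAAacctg
Slc7a11, distal: gtggcTGATGCAAacctg
Slc7a11, proximal: catgaTGATGCAAattct
Asns: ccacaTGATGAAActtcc
Pycr1: gtgtaTGATGCAAtgcac
Vldlr: agcgcTGATGCAActatt
Herpud1: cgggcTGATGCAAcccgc

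Herpud1, a membrane protein of ER-associated degradation, was the only ER chaperone gene with the amino acid response element in this window. The promoter of Hspa5, the gene for BiP, is shown whole as the reference promoter of the ER arm (chr2:34771840-34772139, plus strand), with its element in capitals.
Hspa5: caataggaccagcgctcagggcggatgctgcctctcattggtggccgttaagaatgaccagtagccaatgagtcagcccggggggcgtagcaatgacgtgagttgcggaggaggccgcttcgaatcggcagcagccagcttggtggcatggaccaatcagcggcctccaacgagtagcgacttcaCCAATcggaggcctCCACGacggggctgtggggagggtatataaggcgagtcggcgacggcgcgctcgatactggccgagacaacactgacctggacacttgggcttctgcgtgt
The promoter of Slc7a11, the cystine transporter subunit, holds the amino acid element in both directions (chr3:50443564-50443863, minus strand).
Slc7a11: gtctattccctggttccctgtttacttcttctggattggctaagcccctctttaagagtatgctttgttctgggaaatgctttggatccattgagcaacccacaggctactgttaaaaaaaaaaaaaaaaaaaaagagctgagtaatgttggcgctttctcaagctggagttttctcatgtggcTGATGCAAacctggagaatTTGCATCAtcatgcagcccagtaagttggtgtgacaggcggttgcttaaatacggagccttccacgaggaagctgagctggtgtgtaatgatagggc
A match of letters is a description and does not show that a factor was bound in these tumors.

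Values are the deposited normalized values, on a linear scale, and fold changes are on the log2(value + 1) scale with the wildtype group as reference. Column totals lay between 31995078 and 42153593 after normalization, so the depth of each tumor is unknown. Resf1, the targeted gene, was 4099 ± 400 in wildtype and 3516 ± 361 in gene trap tumors (SD, n = 5 each), and the groups overlapped (log2 fold change -0.22, SE 0.091, unadjusted p = 0.0313 and adjusted p = 0.9997 with limma, exact permutation p = 0.0635). The epithelial markers Epcam, Cdh1, Krt8, Krt18, Krt19, Cldn3, Cldn7 and Esrp1 summed to 86716 to 118619 per tumor and all 8 passed the filter on low values. Gene trap tumor 2 stood apart from the rest, at 91.8 on the first principal component against -18.6 to -4.8 in the other 9 tumors. Some of the values that it moves are given with and without it below. In bulk tumor RNA, fewer cells of a type and less RNA per cell cannot be told apart.

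The study asked whether the reduced Resf1 dose alters gene expression in the tumor. No gene of the ATF4 and UPR program differed between the gene trap and wildtype tumors past the threshold. With limma and Benjamini-Hochberg adjustment over all 21034 genes tested, 0 of the 40 genes had an adjusted p under 0.05, as for the whole table (0.0%). Of the 40, 0 had an unadjusted p under 0.05 (2.28% of all genes did), and in 0 did the groups not overlap (0.528% of all genes). Group means were higher in gene trap tumors for 24 genes and lower for 16, with a median log2 fold change of 0.035 against 0.005 over all genes tested.

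**Figure D1:**
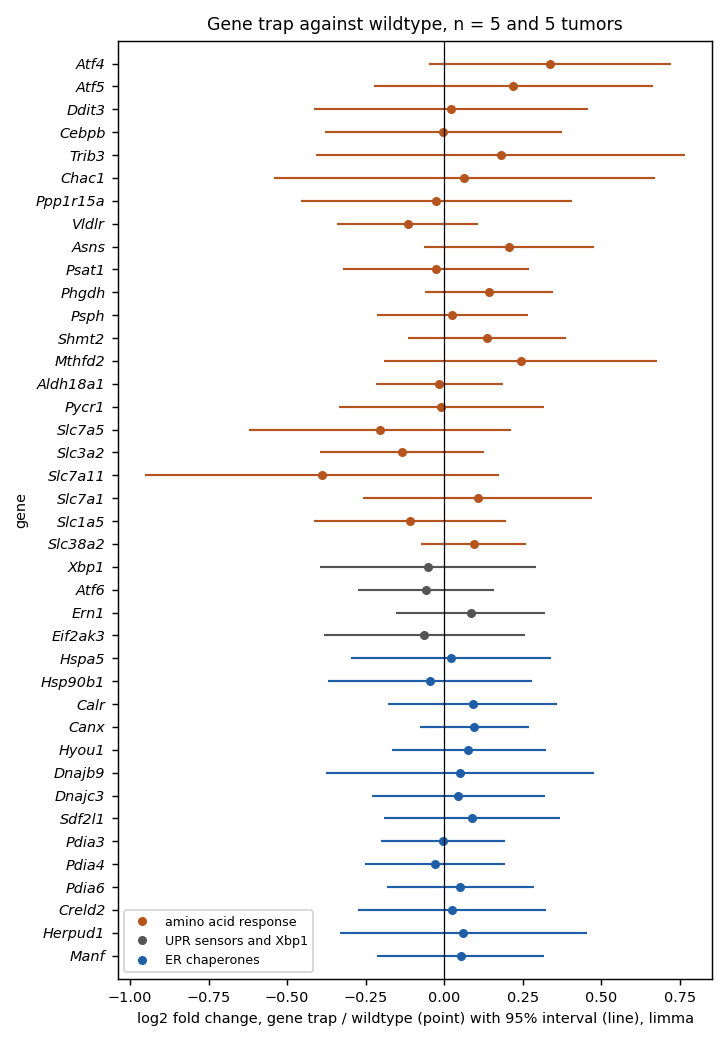
Log2 fold change of each of the 40 genes, gene trap over wildtype (x axis), with its 95% limma interval (n = 5 and 5 tumors). Every interval spans 0, and those of the 14 ER chaperone genes (blue) lie between -0.38 and 0.48, whereas those of the 22 amino acid response genes (brown) reach from -0.95 to 0.77.

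Atf4 itself, the activator at the head of the amino acid response, had the smallest p among the 40 genes. Its values were 2490, 4005, 4186, 3031 and 2748 in wildtype tumors 1 to 5, and 3710, 5418, 2950, 4478 and 4197 in gene trap tumors 1 to 5. The 3 highest values were in gene trap tumors, but gene trap tumor 3 lay below 3 of the wildtype tumors and the groups overlapped. The means were 3292 ± 761 and 4151 ± 915 (SD, n = 5 each), a log2 fold change of 0.34 (95% interval -0.049 to 0.72, limma p = 0.0817, adjusted p = 0.9997, exact permutation p = 0.159). Without gene trap tumor 2, which held the highest value, the log2 fold change was 0.23. Over 18 alternative fits it ranged from 0.20 to 0.45. On the linear scale the 95% interval given above ran from 0.966-fold to 1.65-fold.

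The other 7 regulators had estimates closer to 0 than that of Atf4. Trib3, a pseudokinase that dampens ATF4 and AKT signaling, varied most among the 40 genes within groups (SD 0.51 on the log2 scale). It was 288, 503, 443, 653 and 299 in wildtype tumors and 267, 558, 444, 517 and 683 in gene trap tumors. Ddit3, the gene for the pro-apoptotic factor CHOP, was 318, 411, 399, 587 and 256 in wildtype tumors and 342, 363, 330, 404 and 510 in gene trap tumors. For both genes the range within a single group exceeded the difference between the group means, which was 0.18 for Trib3 and 0.021 for Ddit3 on the log2 scale (exact permutation p = 0.603 and 0.937). Chac1, which degrades glutathione, was 55.0, 76.9, 54.8, 135 and 76.4 in wildtype tumors and 45.3, 91.7, 92.8, 86.1 and 90.2 in gene trap tumors. Wildtype tumor 4 was the highest and gene trap tumor 1 the lowest for Chac1, each apart from its own group. The remaining genes of this group, Atf5, Cebpb, Ppp1r15a (GADD34, which restores eIF2 function) and the lipoprotein receptor gene Vldlr, had log2 fold changes between -0.12 and 0.22.

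Among the biosynthetic enzymes, Asns had the smallest p. It makes asparagine and is a classical ATF4 target. Its values were 1138, 1432, 1577, 1660 and 1371 in wildtype tumors, and 1678, 1296, 1566, 1923 and 1821 in gene trap tumors. In 3 gene trap tumors Asns was above every wildtype tumor, while gene trap tumor 2 was lower than 4 of the wildtype tumors (log2 fold change 0.21, 95% interval -0.064 to 0.47, adjusted p = 0.9997 with limma, exact permutation p = 0.175). Without gene trap tumor 2 it was 0.29 (SE 0.11, unadjusted p = 0.0220, adjusted p = 1.0 with limma). Phgdh, which opens serine synthesis, was 1622, 1635, 1562, 1711 and 1374 in wildtype tumors and 1576, 1843, 1580, 2086 and 1663 in gene trap tumors, with a log2 fold change of 0.14 (exact permutation p = 0.206). Psat1, the next enzyme of that path, was 3332 ± 500 and 3297 ± 668 (SD, n = 5 each), and its highest values were 4192 in wildtype tumor 5 and 4375 in gene trap tumor 4. Neither the entry enzyme nor Psat1 separated the groups. Psph, Shmt2, Mthfd2, Aldh18a1 and Pycr1, which complete serine synthesis, feed the mitochondrial folate cycle and make proline, had log2 fold changes from -0.016 to 0.24, and Mthfd2 was the highest of them (0.24, SE 0.20). Gene trap tumor 4 held the highest value for 5 of the 8 enzymes: Asns, Psat1, Phgdh, Aldh18a1 and Pycr1.

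The 6 transporters had a median log2 fold change of -0.12, with 4 estimates below 0 and 2 above, and every interval spanned 0. Slc7a11, the cystine/glutamate exchanger subunit, had the most negative estimate of the 40 genes. It was 159, 150, 132, 198 and 127 in wildtype tumors and 126, 57.0, 175, 130 and 124 in gene trap tumors. The lowest value, 57.0, was that of gene trap tumor 2, and the next lowest was 124. The log2 fold change was -0.39 (95% interval -0.95 to 0.17, adjusted p = 0.9997 with limma, exact permutation p = 0.214), and it was -0.14 without gene trap tumor 2. Slc7a5 and Slc3a2 encode the light and heavy chains of LAT1, the heterodimer that takes up leucine and other large neutral amino acids. Slc7a5 was 1234, 2627, 1806, 2403 and 1504 in wildtype tumors and 1345, 1463, 1823, 1910 and 1520 in gene trap tumors. Slc3a2 was 3751, 5337, 4411, 5331 and 3529 in wildtype tumors and 3705, 4053, 4409, 3802 and 4140 in gene trap tumors. Wildtype tumors 2 and 4 were the highest for both chains, and the groups overlapped (log2 fold changes -0.20 and -0.13, exact permutation p = 0.381 and 0.317). The estimate of Slc7a5 was -0.35 without wildtype tumor 1, -0.11 without wildtype tumor 4 and -0.076 without wildtype tumor 2. That of Slc3a2 was -0.21 without wildtype tumor 5, -0.066 without wildtype tumor 4 and -0.065 without wildtype tumor 2. Slc38a2, a sodium-coupled transporter of small neutral amino acids, varied least of the amino acid response genes, with 6654 ± 458 and 7104 ± 599 (SD, n = 5 each). The arginine and lysine transporter Slc7a1 and the glutamine transporter Slc1a5 had log2 fold changes of 0.11 and -0.11.

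**Figure D2:**
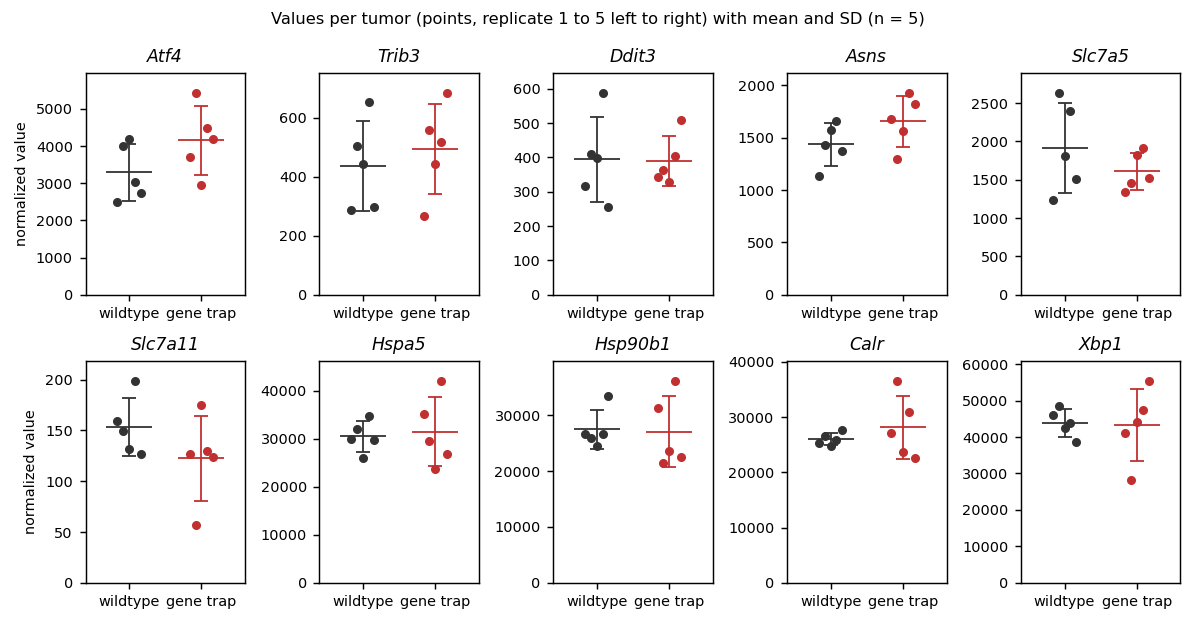
Normalized value (y axis, linear, from 0) of 10 of the genes in each tumor, with the mean and SD of each group (n = 5). In each panel the groups overlap; the lowest Slc7a11 point is gene trap tumor 2 (57.0), and the highest Hspa5 and Hsp90b1 points are gene trap tumor 4 (41974 and 36073).

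The 3 sensors and Xbp1 showed no difference past the threshold, and 1 tumor set the sign of 3 of the 4 estimates. Xbp1 was the most abundant of the 40 genes per kilobase of transcript, at 20467 normalized units per kb, followed by Calr at 12423. Its values were 46166, 48572, 42497, 43715 and 38566 in wildtype tumors and 41042, 28212, 44165, 47520 and 55282 in gene trap tumors, so the highest and the lowest tumor were both gene trap tumors. Eif2ak3 (PERK) was 1643, 2084, 1928, 2157 and 1614 in wildtype tumors and 1976, 1213, 1818, 2083 and 2029 in gene trap tumors. Atf6 was 2448 ± 146 and 2367 ± 323, and Ern1 (IRE1) was 1263 ± 167 and 1335 ± 150 (SD, n = 5 each). Gene trap tumor 2 was the lowest of the 10 tumors for Xbp1, Eif2ak3 and Atf6. The log2 fold changes of these 3 genes were -0.052, -0.064 and -0.059, and without gene trap tumor 2 they were 0.094, 0.077 and 0.034. Total Xbp1 mRNA does not separate its spliced from its unspliced form.

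The ER chaperones were abundant, and their estimates lay close to 0. Their median level was 2653 units per kb, against 349 for the amino acid response genes. Hspa5 (BiP), the HSP70 of the ER lumen that also holds the sensors inactive, was 29979, 31995, 25920, 34743 and 29778 in wildtype tumors and 35091, 29524, 23802, 41974 and 26841 in gene trap tumors. Hsp90b1 (GRP94), the HSP90 of the ER, was 26686, 25933, 24528, 26664 and 33445 in wildtype tumors and 31257, 21529, 23661, 36073 and 22493 in gene trap tumors. Both genes spanned a wider range in gene trap tumors, with gene trap tumor 4 the highest and gene trap tumor 3 (Hspa5) or 2 (Hsp90b1) the lowest, and the group means nearly coincided (log2 fold changes 0.022 and -0.046, 95% intervals -0.30 to 0.34 and -0.37 to 0.28). Per kilobase these chaperones stood next to each other, at 8433 and 8450, which is well within their spread. Calr, the soluble lectin chaperone calreticulin, was 25407, 26576, 24843, 25895 and 27691 in wildtype tumors and 27214, 36496, 23669, 30977 and 22545 in gene trap tumors. Unlike Hsp90b1, Calr had its highest value in gene trap tumor 2. Canx, its membrane-bound counterpart calnexin, varied least of the 40 genes (within-group SD 0.098 on the log2 scale) and was 19996 ± 1633 and 21335 ± 1152 (SD, n = 5 each, log2 fold change 0.096, exact permutation p = 0.175).

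The other chaperones gave the same picture of wide overlap. Hyou1, a nucleotide exchange factor of BiP, was 6887 ± 842 and 7280 ± 1057, and Sdf2l1, a partner of ER DNAJ proteins, was 1092 ± 112 and 1174 ± 235 (SD, n = 5 each). Dnajb9 (ERdj4), a co-chaperone and target of XBP1, was the least abundant ER gene per kilobase and the most variable. It was 748, 1329, 1331, 1246 and 761 in wildtype tumors and 1277, 827, 943, 1240 and 1209 in gene trap tumors. Low values of Dnajb9 occurred in both groups, in wildtype tumors 1 and 5 and in gene trap tumors 2 and 3. The protein disulfide isomerases Pdia3, Pdia4 and Pdia6 and the disulfide-linked factor Creld2 had log2 fold changes between -0.030 and 0.051. Pdia4 was 8444 ± 466 and 8340 ± 1337, and Pdia6 was 9705 ± 660 and 10147 ± 1684 (SD, n = 5 each). Herpud1 was 2804, 3375, 3658, 4949 and 2574 in wildtype tumors and 4203, 2977, 2676, 4100 and 3975 in gene trap tumors. Dnajc3 (p58IPK), an inhibitor of PERK, and the secreted factor Manf had log2 fold changes of 0.044 and 0.052.

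When the arms were set side by side, the medians of the 22 amino acid response genes and the 14 ER chaperone genes both lay near 0, at 0.023 and 0.051. In the first arm 12 estimates were above 0 and 10 below, from -0.39 for Slc7a11 to 0.34 for Atf4. In the second 11 were above 0 and 3 below, from -0.046 for Hsp90b1 to 0.096 for Canx. The genes of an arm share the same tumors and are not replicates, so these counts are a description. The 95% interval lay within 0.5 of 0 on the log2 scale, a 1.41-fold change either way, for 14 of 14 ER chaperone genes, for 4 of 4 sensor genes and for 15 of 22 amino acid response genes. The 7 exceptions were Atf4, Atf5, Trib3, Chac1, Mthfd2, Slc7a5 and Slc7a11. The median SD within groups was 0.28 for the amino acid response, 0.22 for the ER chaperones and 0.25 over all genes tested. For 11 of the 14 ER chaperone genes the SD of the linear values was larger in the gene trap group than in the wildtype group, as it was for 60.2% of all genes tested.

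**Figure D3:**
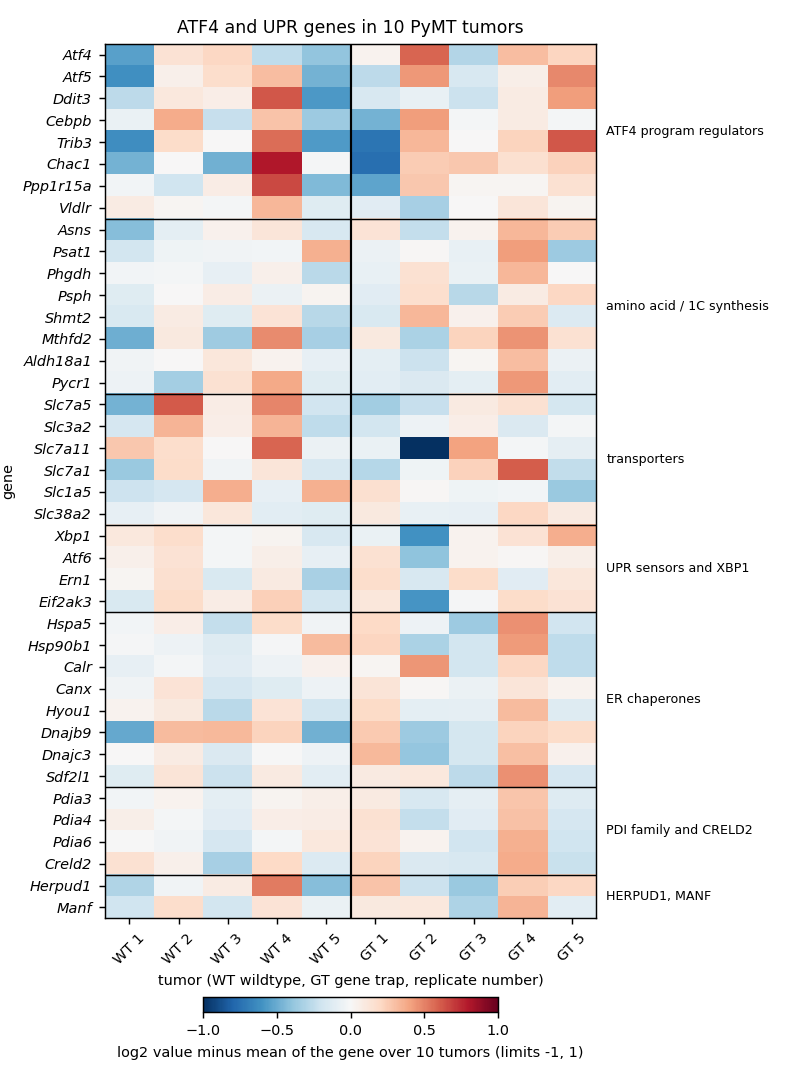
Log2 value of each gene (rows, ordered by role) in each of the 10 tumors (columns, wildtype left and gene trap right), minus the mean of that gene. Colors end at -1 and 1, and Slc7a11 in gene trap tumor 2 lies beyond the lower end. Gene trap tumor 4 is above the mean for 14 of 14 ER chaperone genes, gene trap tumor 3 for 0 of 14, and wildtype tumor 4 for 17 of 22 amino acid response genes.

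Variation between tumors of the same group was larger than the difference between groups in both arms. The mean log2 deviation over the 14 ER chaperone genes was 0.31 in gene trap tumor 4 and 0.17 in gene trap tumor 1, and all 14 genes were above their own mean in both. It was -0.19 in gene trap tumor 3, where 0 of 14 were above their mean, and gene trap tumors 2 and 5 were at -0.091 and -0.097. Wildtype tumors lay between -0.13 and 0.098. For the amino acid response the mean deviation was 0.26 in wildtype tumor 4 and 0.20 in gene trap tumor 4, and -0.23, -0.19 and -0.18 in wildtype tumors 1 and 5 and gene trap tumor 1. Gene trap tumor 1 was therefore high for the ER chaperones and low for the amino acid response, whereas gene trap tumor 4 was high for both. The amino acid response minus the ER chaperones averaged 0.004 ± 0.15 in wildtype and -0.004 ± 0.23 in gene trap tumors (SD, n = 5 each).

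**Figure D4:**
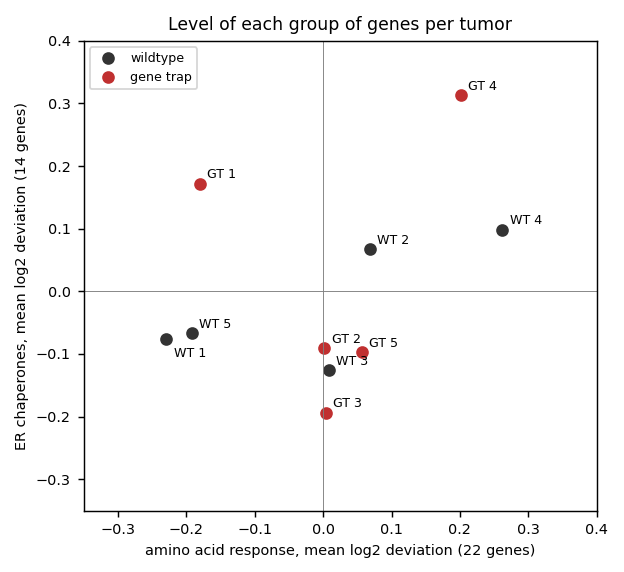
Mean log2 deviation of the 22 amino acid response genes (x axis) and of the 14 ER chaperone genes (y axis) in each tumor, wildtype in black and gene trap in red. Gene trap tumor 4 is high on both axes (0.20 and 0.31), and gene trap tumor 1 is low on the first and high on the second (-0.18 and 0.17).

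Within the arms, the correlation between ER chaperone genes was on average higher than that between amino acid response genes. Correlations were taken over 10 tumors after each group's mean was removed, and they describe these tumors, whose genes share the same libraries. The mean Pearson r over all pairs was 0.56 within the ER chaperones, 0.29 within the amino acid response, 0.73 among the sensors and Xbp1, 0.17 between the amino acid response and the ER chaperones, and 0.0 over all genes tested. Without gene trap tumor 4 these were 0.43, 0.24, 0.80, -0.016 and 0.0, and without gene trap tumor 2 they were 0.65, 0.37, 0.47, 0.19 and 0.002. Of 91 ER chaperone pairs, 23 had r over 0.8, compared with 8 of 231 amino acid response pairs and 2 of 308 pairs across these arms. The tightest ER pairs were Hyou1 with Creld2 (r = 0.98), and Pdia3 with Pdia4 and Sdf2l1 with Manf (r = 0.96 each). The mean r of a gene to the rest of the ER arm ranged from 0.23 for Calr, 0.25 for Dnajb9 and 0.37 for Herpud1 to 0.73 for Hspa5. The value of Calr rested on gene trap tumor 2, its highest tumor, and was 0.71 without it. The same tumor, the lowest for Xbp1 and Slc7a11, set the correlations of Calr with these genes, which were -0.77 and -0.74 with it and -0.37 and -0.25 without it. ER chaperone genes with an exact match to the stress element in the searched window had a mean r of 0.56 (7 genes), and those without a match had 0.50 (5 genes). These means were not taken again without gene trap tumor 2, and the first includes Calr.

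Within the amino acid response the genes grouped as regulators formed the most coherent block, with a mean r of 0.53 against 0.33 for the enzymes and 0.17 for the transporters. Without gene trap tumor 4 these were 0.53, 0.076 and 0.16, so the mean of the enzymes rested largely on that tumor. They were 0.61, 0.44 and 0.15 without gene trap tumor 2. Atf5 with Trib3 (r = 0.91) and Cebpb with the serine hydroxymethyltransferase gene Shmt2 (r = 0.88) were the tightest pairs. Atf4 mRNA had a mean r of 0.23 to the other amino acid response genes and an r of -0.63 to Slc7a11, and these were 0.31 and -0.47 without gene trap tumor 2. Slc1a5 had a mean r of -0.18 to the rest of its arm, the only negative value there. The 6 amino acid response genes with a match to the promoter element had a mean r of 0.43, and the 14 without a match had 0.33. These means too were not taken again without gene trap tumor 2. Of the pairs across arms, the highest were Ddit3 with Herpud1 (r = 0.82) and Asns with Dnajb9 (r = 0.82). Eif2ak3 was close to Asns (r = 0.86) and Mthfd2 (r = 0.80), but its r to Atf4 was -0.081. Its mean r was 0.29 to the amino acid response genes and 0.33 to the ER chaperone genes.

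**Figure D5:**
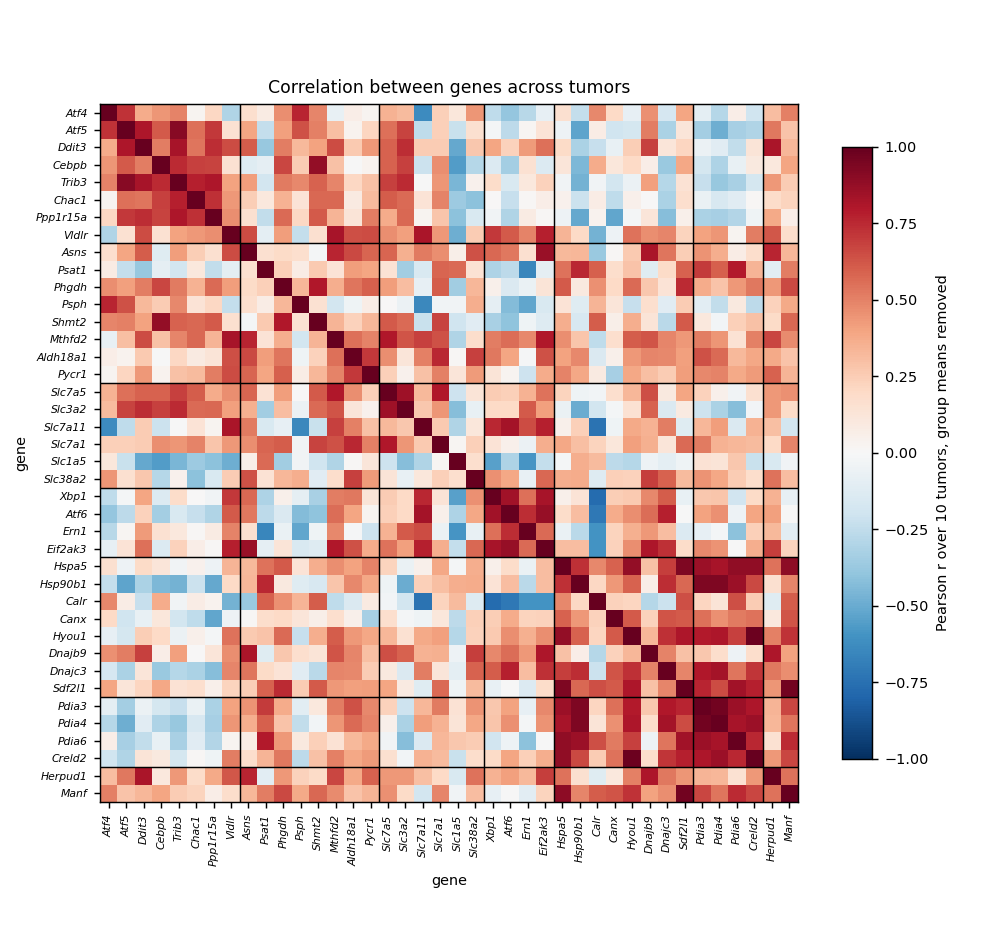
Pearson r between each pair of the 40 genes over 10 tumors, group means removed (both axes list the genes in order of role, color from -1 to 1). The disulfide isomerase block (mean r 0.84), the block of regulators (0.53) and the sensors with Xbp1 (0.73) are red, while the row of Calr is blue against Xbp1 (-0.77, and -0.37 without gene trap tumor 2).

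Known partnerships and some pairs across arms were tested, 12 pairs in all, with 100000 permutations of the tumors and Benjamini-Hochberg adjustment over the 12. By Pearson's r, 4 pairs had an adjusted p under 0.05. The tumors were permuted freely after each group's mean had been removed, with no allowance for the estimated means. The permutation p-values are therefore somewhat too small. Hspa5 with Hsp90b1, at an adjusted p of 0.0487 by permutation, lay just under the threshold, so its pass is uncertain. The chains of LAT1, Slc7a5 and Slc3a2, gave r = 0.85 and rho = 0.83 (permutation p = 0.00238 and 0.00478, adjusted p = 0.0138 and 0.0287, and r = 0.76 without the 2 tumors farthest from the median). Ddit3 and Trib3, where TRIB3 is induced by CHOP, gave r = 0.83 and rho = 0.87 (permutation p = 0.00285 and 0.00222, adjusted p = 0.0138 and 0.0266, and r = 0.78 without the 2 farthest). Pdia4 and Pdia6 gave r = 0.83 and rho = 0.77 (permutation p = 0.00345 and 0.0122, adjusted p = 0.0138 and 0.0490, and r = 0.91 without the 2 farthest). Without gene trap tumor 4 the r of Pdia4 with Pdia6 was 0.64, so this relation too rests in part on that tumor. Hspa5 and Hsp90b1 gave r = 0.73 and rho = 0.71 (permutation p = 0.0162 and 0.0273, adjusted p = 0.0487 and 0.0819), with r = 0.53 without the 2 farthest tumors and 0.49 without gene trap tumor 4, so that this relation rests in part on that tumor. Within the wildtype and the gene trap tumors, 5 each, r was 0.94 and 0.34 for Slc7a5 with Slc3a2, 0.95 and 0.71 for Ddit3 with Trib3, 0.88 and 0.82 for Pdia4 with Pdia6, and 0.14 and 0.88 for Hspa5 with Hsp90b1. The count of 4 pairs was 2 without wildtype tumor 2 and 2 without gene trap tumor 4.

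The other 8 pairs did not pass. Atf4 and Asns gave r = 0.17 and rho = 0.20 (permutation p = 0.635 and 0.585, adjusted p = 0.635 and 0.729), and r = 0.71 without gene trap tumor 2, the tumor with the highest Atf4 and one of the lowest Asns values. Psat1 and Phgdh, successive enzymes of serine synthesis, gave r = 0.24 and rho = 0.29 (permutation p = 0.508 and 0.429, adjusted p = 0.609 and 0.729), with r = -0.85 within wildtype and 0.79 within gene trap tumors, 5 tumors each. The pairs across arms, Asns with Hspa5 and Ddit3 with Hspa5, gave r = 0.32 and 0.19 (permutation p = 0.363 and 0.595, adjusted p = 0.609 and 0.635) and rho = 0.47 and 0.20 (permutation p = 0.180 and 0.585, adjusted p = 0.433 and 0.729). Xbp1 and its target Dnajb9 gave r = 0.48 and rho = 0.12 (permutation p = 0.160 and 0.757, adjusted p = 0.384 and 0.825), and r = 0.26 without gene trap tumor 2. The remaining pairs, Asns with Trib3, Asns with Chac1 and Hspa5 with Dnajb9, had r between 0.25 and 0.42 with adjusted p from 0.462 to 0.609, and rho between 0.067 and 0.43 with adjusted p from 0.439 to 0.866, by permutation. Without gene trap tumor 2, r was 0.69 for Asns with Trib3, 0.46 for Asns with Chac1 and 0.28 for Hspa5 with Dnajb9.

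Genes of the same pathways outside the 40 gave 0 calls as well. Of 34 further ATF4 targets, 33 had a row and were tested, 0 passed with or without adjustment in either direction, and 23 estimates were above 0 (median log2 fold change 0.033). Cth, which makes cysteine from cystathionine, had the smallest p of them, with 90.6, 54.1, 56.1, 56.9 and 80.6 in wildtype tumors and 108, 86.7, 80.3, 76.3 and 84.9 in gene trap tumors (log2 fold change 0.39, SE 0.19, adjusted p = 0.9997 with limma, exact permutation p = 0.0952). Of 15 eIF2 kinases, eIF2 and eIF2B subunits and phosphatase factors, 0 passed and the median was 0.009. Eif2ak1, the heme-regulated eIF2 kinase, had the smallest p in that list, with a log2 fold change of 0.10 (SE 0.069, limma adjusted p = 0.9997). Its exact permutation p, unadjusted, was 0.0397, with 815 ± 48.6 in wildtype and 874 ± 22.6 in gene trap tumors (SD, n = 5 each). Of 40 further UPR and ER-associated degradation genes, 0 passed, and 29 estimates were above 0 (median 0.034). Derl3, a channel component of ER-associated degradation, had the smallest p there, with 468, 659, 589, 540 and 468 in wildtype tumors and 689, 564, 533, 1031 and 691 in gene trap tumors (log2 fold change 0.34, SE 0.17, adjusted p = 0.9997 with limma, exact permutation p = 0.119). Its highest tumor was gene trap tumor 4, as for 9 of the 14 ER chaperone genes.

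The makeup of the tumors was read from marker lists, in all of which 0 genes passed. Plasma cells are rich in ER chaperones, and 6 of 10 markers of plasma and B cells had a row. These summed to 736 to 981 in wildtype tumors and 767 to 1847 in gene trap tumors, with the highest sum in gene trap tumor 3, which was the lowest for the ER chaperones. Derl3, also counted above among the further UPR genes, gave 468 to 1031 of each sum, and without it the sums were 196 to 513 in wildtype tumors, 1314 in gene trap tumor 3 and 159 to 256 in the rest of that group. In gene trap tumor 3 Ighm was 848, Jchain 184, Cd79b 168, Pou2af1 102 and Mzb1 11.2. Ighm, Cd79b, Pou2af1 and Mzb1 were highest in that tumor, but Jchain was higher in wildtype tumor 5 (193). Derl3, at 533 in gene trap tumor 3, was the lowest of the gene trap group there. The 8 milk and alveolar genes summed to 204932 in wildtype tumor 2, 200943 in gene trap tumor 4 and 143916 to 187350 in the other tumors. Csn3 alone gave 127658 to 180601 of each sum and was highest in gene trap tumor 4. Csn1s1, Csn2, Csn1s2a, Lalba and Glycam1 were highest in wildtype tumor 5, and Wap and Elf5 in wildtype tumor 2. All 8 had estimates below 0 (median log2 fold change -0.34). The 10 fibroblast genes summed to 50682 to 112387 in wildtype tumors and 69755 to 148159 in gene trap tumors, with the highest sum in gene trap tumor 1. Gene trap tumor 2 had the highest epithelial sum (118619), with Krt18 at 35379 there against 18434 to 26506 in the other tumors. Krt18, Cldn3 and Cldn7 were highest in that tumor, and Epcam, Cdh1, Krt8, Krt19 and Esrp1 in other tumors. Of the 8 neutrophil markers 5 had a row, and their sum was highest in gene trap tumor 2 (2092) through S100a8 alone (1962), while without S100a8 it was 130 there, 866 in gene trap tumor 3 and 88.4 to 429 in the other tumors. Macrophage, endothelial, T and NK cell, adipocyte and skeletal muscle sums overlapped between the groups. Their part in the values of the 40 genes was not tested.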

How the data were processed

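RNA was isolated with Trizol from mammary tumors and made into stranded total RNA libraries (TruSeq). The authors deposited 1 table of 23609 genes in 16 columns, a signal of estimated counts per gene that they had normalized by median ratios. Partek, STAR (2.7.8a), DESeq2 and the mm39 build are named in the submitters' processing notes, and the annotation is not given in the sources used here. Of the 16 columns, 10 matched a labelled tumor by name (5 per group) and 6 matched none and were not used. The values were not whole and held 0 zeros, so whole reads and depth were out of reach and precision is given by the spread between tumors alone. Replicates are separate tumors by their labels, and nothing further states that each came from its own animal, so p-values measure the spread between these samples. Symbols and the longest transcript length came from GENCODE M21 (15 list genes were matched by an older symbol).

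Values were tested as log2(value + 1) for genes with a mean of at least 10 (21034 genes) with limma 3.58.1 in R 4.3.3, with empirical Bayes moderation along the mean-variance trend, a single genotype term, and p-values adjusted over all genes by Benjamini-Hochberg. Exact permutation tests were two-sided over 252 arrangements, where the smallest p possible is 0.00794. Correlations used Python 3.11.15 and scipy 1.17.1. The 40 genes, the lists, the pairs and the genes named in full were chosen with earlier results of these data known. Genes described in full were those with the smallest p, the largest or smallest spread, the highest or lowest level in their arm, those of the pairs, and those with 1 tumor far from its group, and pairs of genes named for a high or low correlation were picked from the full set of correlations. The scripts were tested on simulated data. Alternatives were other pseudocounts (0.5 and 10), filters, a fit without the variance trend, quantile-normalized values, weights per tumor, a replicate block and leaving out each tumor.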

Additional observations from a re-analysis of the deposited data

Results flagged for a closer look

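A tumor lay far from the others of its group, by Dixon's ratio at the 95% critical value of 0.71 for 5 samples, in 6 of 88 groups of values tested, where chance gives about 4.4. Chac1 was 135 in wildtype tumor 4 against 54.8 to 76.9 in the other wildtype tumors, and 45.3 in gene trap tumor 1, where the rest of that group held 86.1 to 92.8. Psat1 was 4192 in wildtype tumor 5 against 2880 to 3220. Pycr1 was 738 in gene trap tumor 4 against 494 to 509. Hsp90b1 was 33445 in wildtype tumor 5 against 24528 to 26686, while the other ER chaperone genes were not singled out in that tumor. The mean log2 deviation of the sensors and Xbp1 was -0.441 in gene trap tumor 2 , and the rest of the group lay between 0.057 and 0.172. Gene trap tumor 2 also stood apart over all genes.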

How the results depend on the processing

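In the planned comparison, 0 of the 40 genes and 0 genes of the whole table had an adjusted p under 0.05 under each of 18 alternative fits. The plan's count-based tests were not run, because the values are normalized and not counts. With the replicate block 0 genes passed, and 426 genes had an unadjusted p under 0.05 in place of 479. The same-numbered tumors correlated by 0.103, -0.003, -0.156, 0.149 and -0.142 in their deviations, and only those of number 4 correlated best with their own number, so no pairing was used. An unadjusted p under 0.05 appeared for Asns with weights per tumor and without gene trap tumor 2, for Atf4 without wildtype tumor 2, wildtype tumor 3 or gene trap tumor 3, and for Mthfd2 without wildtype tumor 4. Over the 18 alternatives the median log2 fold change ranged from -0.021 to 0.11 for the amino acid response, from -0.026 to 0.11 for the ER chaperones and from -0.069 to 0.097 for their difference, and that of Resf1 from -0.28 to -0.17. The count of pairs that passed was 2 to 4 when 1 tumor was left out, the mean correlation among the sensors and Xbp1 was 0.47 to 0.80, and that over all genes tested 0.0 to 0.002.

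Estimates near 0 changed sign for 24 of the 40 genes, none of them called. With weights per tumor the log2 fold change was -0.022 for Ddit3, -0.027 for Psph, 0.053 for Xbp1, 0.020 for Atf6, 0.022 for Eif2ak3, 0.012 for Hsp90b1, 0.024 for Pdia3 and 0.011 for Pdia4. When 1 tumor was left out, the lowest and highest log2 fold changes were as follows: Ddit3 (-0.12 to 0.18), Chac1 (-0.048 to 0.27), Psph (-0.023 to 0.099), Dnajb9 (-0.071 to 0.15), Herpud1 (-0.037 to 0.20), Cebpb (-0.11 to 0.12), Pdia3 (-0.074 to 0.037), Aldh18a1 (-0.095 to 0.036), Pycr1 (-0.12 to 0.085), Hspa5 (-0.089 to 0.12), Creld2 (-0.064 to 0.083), Ppp1r15a (-0.14 to 0.14), Psat1 (-0.13 to 0.062), Hsp90b1 (-0.16 to 0.028), Dnajc3 (-0.032 to 0.15), Xbp1 (-0.15 to 0.094), Atf6 (-0.10 to 0.034), Eif2ak3 (-0.12 to 0.077), Calr (-0.009 to 0.17), Pdia4 (-0.11 to 0.025), Slc7a1 (-0.032 to 0.19), Sdf2l1 (-0.014 to 0.16), Pdia6 (-0.031 to 0.11) and Manf (-0.028 to 0.14). The correlations that changed sign in this way were those of Atf4 and Asns (-0.13 to 0.71), Asns and Chac1 (-0.048 to 0.46), Ddit3 and Hspa5 (-0.023 to 0.39) and Psat1 and Phgdh (-0.47 to 0.75). The cause was not tested. The correlations of single gene pairs without gene trap tumor 2 and the marker sums without Derl3 or S100a8 were added after the data were seen. No depth is known for these tumors, so the precision of low genes such as Chac1 and Slc7a11 rests on the 5 tumors of each group.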
